A study of Mus musculus with 13 samples.

Results

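Voltage-gated calcium channel subunit genes were followed in motoneurons of SOD1-G93A mice, a transgenic model of amyotrophic lateral sclerosis. The 10 genes were chosen by symbol, not by their values, as 8 pore subunit genes (Cacna1a, Cacna1b, Cacna1c, Cacna1d, Cacna1e, Cacna1g, Cacna1h and Cacna1i) and 2 α2δ subunit genes (Cacna2d1 and Cacna2d2). All 10 had an entry among the 48709 Ensembl genes of the count tables. At 65 days of age, 500 motoneurons per mouse were laser-microdissected from cresyl violet-stained sections (14 µm) of lumbar cord frozen inside its vertebrae, pooled, and their RNA amplified with a low-input kit before sequencing. The AAV-miR SOD1 group (n = 4) had received, into the cerebral ventricles at postnatal day 2, a viral vector that expresses an artificial microRNA against human SOD1 in astrocytes. Mice of the AAV-miR ctrl group (n = 5) were injected with a control vector by the same route, and littermates left without injection made up the non-injected group (n = 4). Every mouse of all 3 groups carried the human SOD1-G93A transgene, so no healthy reference is included. Nothing in the labels ties the libraries to independent litters, and p-values measure the spread between these 13 libraries.

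The pore subunit forms the calcium-selective channel and sets its type. Cacna1a (P/Q type) and Cacna1b (N type) open at strong depolarisation and drive transmitter release at nerve terminals, including those of motoneurons on muscle. Cacna1c and Cacna1d form L-type channels of the cell body and dendrites, where in motoneurons they contribute to persistent inward currents. Cacna1e forms the R type, and Cacna1g, Cacna1h and Cacna1i form T-type channels, which open near the resting potential. The α2δ subunits are extracellular proteins that bring pore subunits to the cell surface.

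Promoter sequences are given for the members with the highest and the lowest level per kilobase, Cacna2d1 and Cacna1i, from RefSeq on GRCm38.p6. Each run is the 250 bases before an annotated start, on the plus strand, 5′ to 3′, chr5:15934441-15934690 for Cacna2d1 and chr15:80286988-80287237 for Cacna1i. Capitals mark the GC box, GGGCGG on either strand, so that CCGCCC is the same box read on the other strand.
Cacna2d1: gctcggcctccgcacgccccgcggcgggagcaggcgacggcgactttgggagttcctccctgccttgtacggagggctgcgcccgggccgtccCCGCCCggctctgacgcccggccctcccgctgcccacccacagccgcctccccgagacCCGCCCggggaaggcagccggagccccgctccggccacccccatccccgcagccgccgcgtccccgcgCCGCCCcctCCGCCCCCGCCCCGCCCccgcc
Cacna1i: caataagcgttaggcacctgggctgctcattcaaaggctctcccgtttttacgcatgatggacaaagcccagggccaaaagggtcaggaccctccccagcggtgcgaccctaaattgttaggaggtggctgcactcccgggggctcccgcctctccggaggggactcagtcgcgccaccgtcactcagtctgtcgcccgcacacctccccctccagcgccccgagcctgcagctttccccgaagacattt
The Cacna2d1 stretch held 6 GC boxes, 36 CpG dinucleotides and 82.4% G or C, whereas the Cacna1i stretch held 0 GC boxes, 16 CpG dinucleotides and 62.4% G or C. Over all 32851 RefSeq promoters of this length, 32.7% held a GC box on either strand, the median CpG number was 6 and the median G or C content 52.4%. The table matched 7 of the 10 members, with 10 promoters between them, and not Cacna1a, Cacna1g and Cacna1h. Of these 10 promoters, 5 held a GC box. The letters TATAAA were present in 1 of the 10 member promoters (12.4% of all promoters), CCAAT in 3 (33.9%) and TGACGTCA in 0 (1.55%), each searched on both strands. These matches describe letters only, and no binding was measured.

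Libraries held 13.9 to 37.4 megacounts assigned to genes, and 3 counts correspond to 0.0749 to 0.225 CPM (the count divided by the TMM-scaled library size in megacounts). All 7 motoneuron markers were detected in every library, with a summed level of 527 to 1033 CPM in the AAV-miR SOD1 group, 737 to 2287 in the AAV-miR ctrl group and 909 to 2338 in the non-injected group. The 5 skeletal muscle markers were also detected in every library, summing to 5984 to 85572, 16977 to 95439 and 25165 to 78489 CPM in the same order of groups. The 6 erythroid markers summed to 20903 to 47051, 3533 to 28121 and 5544 to 20182 CPM, and 6 microglia markers to 563 to 814, 318 to 990 and 204 to 551 CPM. In such pooled cuts, fewer cells of a type and less RNA per cell cannot be told apart. Replicates 5 and 6, found among the controls alone (4 libraries), had the greatest depth, so that sequencing depth and group cannot be told apart there. For the third replicate of each control group, the column header names another group than the label does, and the labels were followed.

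No calcium channel member passed the test in any comparison of groups. Of the 10 members, 9 passed the filter on low counts, and Cacna1i did not. In edgeR's quasi-likelihood test over 17403 genes, 0 of the 9 had an adjusted p under 0.05 for AAV-miR SOD1 against AAV-miR ctrl, against the non-injected group or against both control groups, or for AAV-miR ctrl against the non-injected group. That count has to be read against the whole table, of which edgeR called 0% at that threshold in each of the 4 comparisons. DESeq2 and limma-voom also called 0 of 9 members in each. Of all genes, DESeq2 called 0.994% against AAV-miR ctrl, 5.72% against the non-injected group, 8.5% against both and 0.0115% between the control groups, and limma-voom called 8.4% against both and 0% in the other 3 comparisons. At an unadjusted p under 0.05, the members counted 0 of 9 against AAV-miR ctrl, where 14.5% of all genes passed, and 0 of 9 against the non-injected group, where 20.9% passed. Likewise 0 of 9 passed for AAV-miR ctrl against the non-injected group, where 3.61% of all genes did. Against both control groups, 1 of 9 passed, Cacna1h, compared with 22.2% of all genes in either direction and 12.1% in the lower direction. Cacna1h passed that unadjusted threshold in 9 of 23 alternative fits of this comparison. It missed it with RLE or upper quartile scaling, with the replicate number as a block, in libraries numbered 1 to 4 alone, without both libraries of contradicting header, and when AAV-miR SOD1 replicate 1, 2 or 3, AAV-miR ctrl replicate 4, 5 or 6, or non-injected replicate 3, 5 or 6 was left out. For 0 of the 9 did every AAV-miR SOD1 library lie below all 9 control libraries, which held for 1.23% of all genes.

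**Figure D1:**
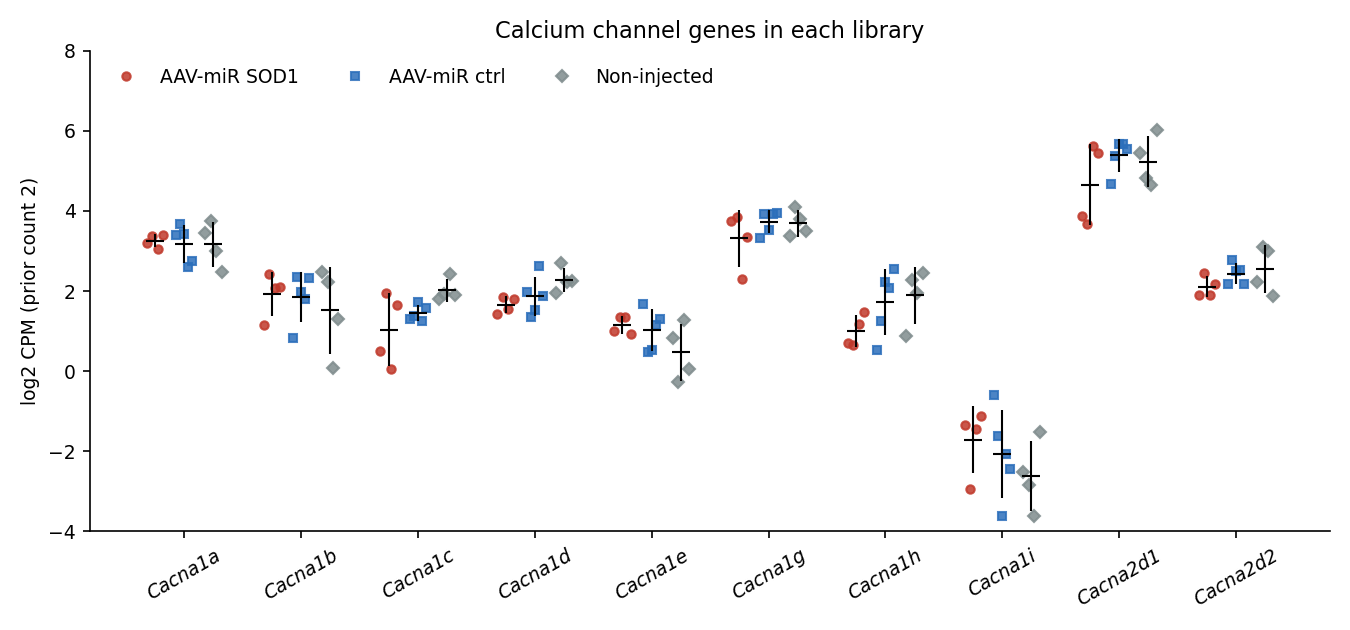
Level of each calcium channel member in the 13 libraries, as log2 CPM with a prior count of 2 (vertical axis), for AAV-miR SOD1 (n = 4, red circles), AAV-miR ctrl (n = 5, blue squares) and non-injected mice (n = 4, grey diamonds). Horizontal ticks and vertical bars are the group mean and SD, and the groups overlap for nearly every gene, with Cacna2d1 highest and Cacna1i lowest.

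The members' ranks were set on CPM per kilobase of merged exons, since read counts grow with transcript length. Cacna2d1 stood highest at 3.08 ± 1.26 CPM per kilobase (SD, n = 13), followed by Cacna1g at 1.23 ± 0.322, Cacna1a at 0.823 ± 0.214 and Cacna2d2 at 0.666 ± 0.200. Cacna1b at 0.371 ± 0.148, Cacna1h at 0.329 ± 0.162 and Cacna1d at 0.308 ± 0.0984 CPM per kilobase formed a middle group. Cacna1c at 0.140 ± 0.0531, Cacna1e at 0.0754 ± 0.0270 and Cacna1i at 0.0196 ± 0.0172 CPM per kilobase came last. Each member was compared with the next lower one within libraries by a two-sided exact sign-flip permutation test, adjusted over the 9 neighbour pairs. Cacna1b and Cacna1h did not differ beyond their spread (Cacna1b higher in 7 of 13 libraries, exact adjusted p = 0.577), nor did Cacna1h and Cacna1d (6 of 13, exact adjusted p = 0.937). The other 7 steps passed, from Cacna2d1 over Cacna1g (11 of 13 libraries, exact adjusted p = 0.00385) to Cacna1e over Cacna1i (13 of 13, exact adjusted p = 0.000732). The step from Cacna1a to Cacna2d2 had the largest p among those 7 (11 of 13, exact adjusted p = 0.0358). In AAV-miR SOD1 replicates 1 and 2, Cacna2d1 (1.18 and 1.02 CPM per kilobase) lay below Cacna1g (1.31 and 1.42). The level of Cacna2d1 varied with the skeletal muscle markers, as given below. Its rank is therefore that in the pooled cuts, and a rank within motoneurons was not tested. With the longest coding transcript as the length, Cacna1g over Cacna1a no longer passed (9 of 13, exact adjusted p = 0.107) and Cacna1b moved behind Cacna1d and Cacna1h. That length was added after the values were seen.

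Shares were taken over the pore subunit members alone, which do not include Cacna1s. That gene, the muscle L-type pore, averaged 28.6 CPM per kilobase over the 13 libraries. T-type transcripts made up 47.4% ± 7.64 (SD, n = 13) of the members' summed CPM per kilobase, with 36.8% ± 6.34 from Cacna1g alone. The transmitter-release types, Cacna1a and Cacna1b together, made up 36.6% ± 8.70, the L types Cacna1c and Cacna1d 13.6% ± 3.21, and the R type Cacna1e 2.41% ± 1.10 of that sum. By group, the T-type share was 42.8% ± 8.10 in AAV-miR SOD1 (n = 4), 49.8% ± 6.37 in AAV-miR ctrl (n = 5) and 48.9% ± 8.52 in non-injected mice (n = 4). For P/Q and N types together the shares were 42.3% ± 6.42, 35.1% ± 7.77 and 32.7% ± 10.7, and for L types 11.9% ± 1.70, 12.6% ± 3.37 and 16.6% ± 2.32, in the same order. These shares overlapped between the AAV-miR SOD1 group and the controls for T types (32.8% to 52.5% against 37.2% to 57.0%) and for P/Q and N types (35.4% to 50.8% against 24.1% to 46.4%). The L-type share in AAV-miR SOD1 (9.46% to 13.2%) overlapped with AAV-miR ctrl (8.43% to 17.0%) and lay below all 4 non-injected libraries (14.3% to 19.0%). With the groups of non-injected replicate 3 and AAV-miR ctrl replicate 3 exchanged, as their headers have it, the non-injected L-type share began at 8.43% and overlapped too. Cacna1a alone supplied 15.1% to 21.3% in the 4 control libraries numbered 5 or 6, and 25.4% to 32.8% in the other 9 libraries. Differences in these shares between groups were not tested.

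**Figure D2:**
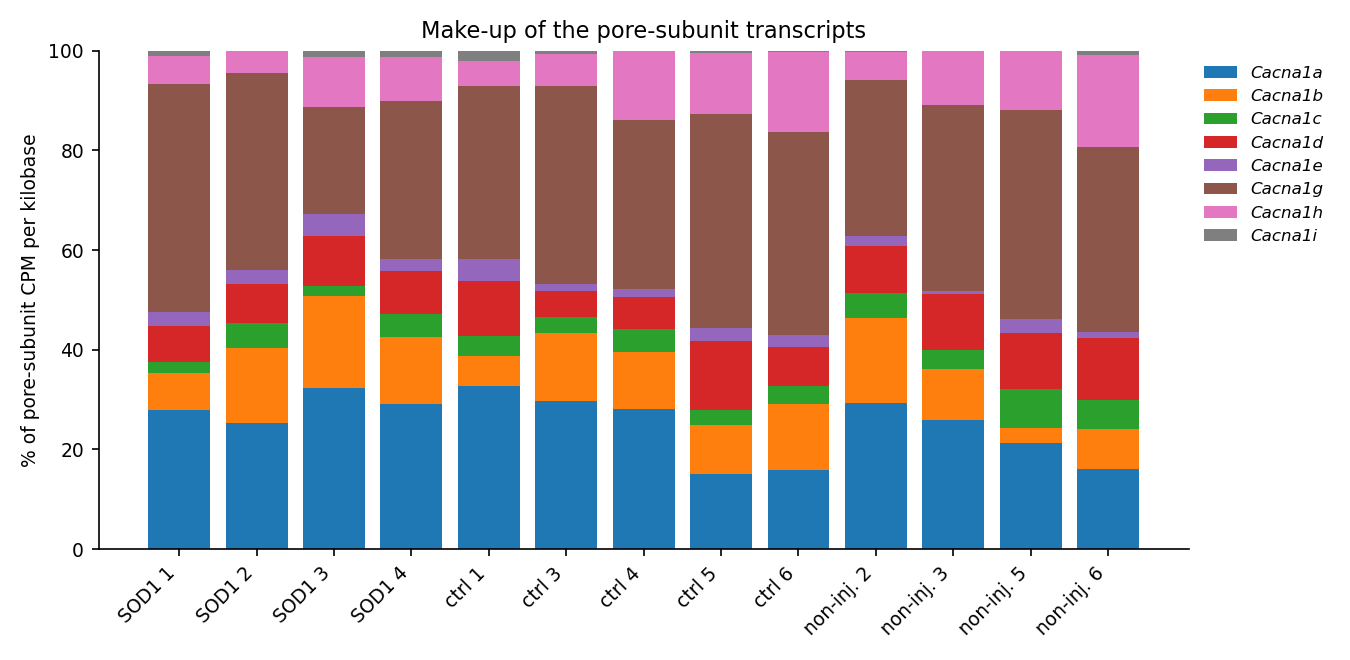
Share of each pore subunit member in the summed CPM per kilobase of the 8 pore subunit members (vertical axis, percent), 1 stacked bar per library. Cacna1g is the widest band in most libraries, and the Cacna1a band is narrowest in the control libraries numbered 5 or 6.

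In the following, CPM values are listed for AAV-miR SOD1 replicates 1, 2, 3 and 4, then AAV-miR ctrl replicates 1, 3, 4, 5 and 6, then non-injected replicates 2, 3, 5 and 6. Log2 fold changes are those of edgeR, with their standard errors, and adjusted p-values are over all 17403 genes.

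Cacna1a (ENSMUSG00000034656, GRCm38 chr8:84388440-84640246, plus strand), the P/Q-type pore, was at 9.13, 10.4, 8.25 and 10.4 CPM with AAV-miR SOD1, at 10.5, 12.6, 10.7, 5.99 and 6.67 CPM with AAV-miR ctrl, and at 10.8, 13.4, 7.89 and 5.46 CPM without injection. The AAV-miR SOD1 libraries lay inside the range of both control groups. Group means were 9.54 ± 1.05 (SD, n = 4), 9.30 ± 2.84 (n = 5) and 9.40 ± 3.47 CPM (n = 4). The log2 fold change against both control groups was 0.03 ± 0.27 (SE, adjusted p = 0.962), with a 95% interval of -0.49 to 0.55. Among the controls the level differed between low and high library numbers, which also differ in sequencing depth. This split was not tested, and Cacna1g showed little of it (12.7 ± 3.19 CPM in numbers 1 to 4, 13.8 ± 1.92 CPM in numbers 5 or 6). For Cacna1a, control libraries numbered 1 to 4 had 11.6 ± 1.33 CPM (SD, n = 5) and those numbered 5 or 6 had 6.50 ± 1.05 CPM (n = 4). The 4 AAV-miR SOD1 libraries (8.25 to 10.4 CPM) fell between these 2 sets, just below the 5 controls with the same numbers (10.5 to 13.4 CPM). Within the libraries numbered 1 to 4 the fitted log2 fold change was -0.28, opposite in sign to that over all 13 libraries, and with an adjusted p above the threshold. Of the Cacna1a exons, 3.81% lie across Gm16183 on the other strand, and the strand setting of the counting is not given in the sources used here.

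Cacna1b (ENSMUSG00000004113, chr2:24603887-24763152, minus strand), the N-type pore, was at 2.14, 5.33, 4.12 and 4.17 CPM with AAV-miR SOD1, at 1.68, 5.01, 3.82, 3.39 and 4.91 CPM with AAV-miR ctrl, and at 5.49, 4.56, 0.974 and 2.39 CPM without injection. The lowest library was non-injected replicate 5 and the highest non-injected replicate 2, and the 3 groups overlapped widely. Its log2 fold change against both control groups was 0.15 ± 0.43 (SE, adjusted p = 0.875), and within libraries numbered 1 to 4 it was -0.07. The log2 ratio of Cacna1a to Cacna1b counts averaged 1.32 ± 0.511 (SD, n = 4) with AAV-miR SOD1, 1.32 ± 0.812 (n = 5) with AAV-miR ctrl and 1.66 ± 0.897 (n = 4) without injection. It did not differ between AAV-miR SOD1 and both control groups beyond the spread (exact permutation p = 0.745, adjusted p = 0.852 over 16 ratio tests).

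Of the L-type pores, Cacna1c (ENSMUSG00000051331, chr6:118587240-119196418, minus strand) was at 1.34, 3.79, 0.948 and 3.03 CPM with AAV-miR SOD1, at 2.39, 2.51, 3.22, 2.31 and 2.88 CPM with AAV-miR ctrl, and at 3.41, 3.70, 5.32 and 3.64 CPM without injection. The AAV-miR SOD1 libraries split, with replicates 1 and 3 below every control library and replicates 2 and 4 inside the control range. All 5 AAV-miR ctrl libraries lay below all 4 non-injected libraries, which 0.517% of the genes tested showed in that direction. With the same header exchange, AAV-miR ctrl reached 3.70 CPM, non-injected began at 2.51 CPM, and the groups overlapped. The log2 fold change of AAV-miR ctrl against the non-injected group was -0.60 ± 0.39 (SE, adjusted p = 1.00), and that of AAV-miR SOD1 was -0.82 ± 0.42 against the non-injected group (adjusted p = 0.281) and -0.22 ± 0.40 against AAV-miR ctrl (adjusted p = 0.837). These comparisons share libraries and are set side by side only. Against both control groups it was -0.52 ± 0.37 (adjusted p = 0.431), and -0.34, -0.88 and -0.21 without AAV-miR SOD1 replicate 1, 2 or 3.

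Cacna1d (ENSMUSG00000015968, chr14:30039939-30491455, minus strand), the L-type pore that opens at lower voltages, was at 2.63, 3.55, 2.84 and 3.41 CPM with AAV-miR SOD1, at 3.84, 2.46, 2.77, 6.07 and 3.59 CPM with AAV-miR ctrl, and at 3.78, 6.38, 4.59 and 4.68 CPM without injection. All 4 AAV-miR SOD1 libraries lay below all 4 non-injected libraries, as did those of 5.81% of the genes tested, while they overlapped with AAV-miR ctrl, as for the other 8 members tested (2.46% of all genes lay wholly below AAV-miR ctrl). With the header exchange the non-injected group began at 2.46 CPM, and the separation was lost. Its log2 fold change was -0.64 ± 0.34 (SE) against the non-injected group (adjusted p = 0.295), -0.27 ± 0.32 against AAV-miR ctrl (adjusted p = 0.729) and -0.46 ± 0.29 against both (adjusted p = 0.383). Leaving out 1 library at a time gave -0.36 to -0.0297 against AAV-miR ctrl, the value nearest 0 being that without AAV-miR ctrl replicate 5. Chdh, on the other strand, covers 4.67% of the Cacna1d exons. The log2 ratio of Cacna1c to Cacna1d counts was -0.62 ± 0.725 (SD, n = 4) with AAV-miR SOD1 and -0.35 ± 0.516 (n = 9) in both control groups (exact permutation p = 0.452, adjusted p = 0.852).

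Cacna1e (ENSMUSG00000004110, chr1:154390731-154884501, minus strand), the R-type pore, was at 1.91, 2.45, 2.46 and 1.83 CPM with AAV-miR SOD1, at 3.14, 1.30, 1.35, 2.16 and 2.37 CPM with AAV-miR ctrl, and at 1.71, 0.740, 2.35 and 0.954 CPM without injection. The AAV-miR SOD1 libraries were the most even and sat inside the control range. The log2 fold change was 0.32 ± 0.38 (SE) against both control groups (adjusted p = 0.659), 0.07 ± 0.42 against AAV-miR ctrl (adjusted p = 0.960) and 0.58 ± 0.45 against the non-injected group (adjusted p = 0.487).

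Cacna1g (ENSMUSG00000020866, chr11:94408391-94474198, minus strand), the main T-type pore in these libraries, was at 13.3, 14.4, 4.88 and 10.1 CPM with AAV-miR SOD1, at 9.85, 14.99, 11.5, 15.2 and 15.3 CPM with AAV-miR ctrl, and at 10.2, 17.1, 13.8 and 11.2 CPM without injection. AAV-miR SOD1 replicate 3 was the lowest of the 13 libraries, and the other 3 AAV-miR SOD1 libraries lay inside the control range. The log2 fold change against both control groups was -0.31 ± 0.27 (SE, adjusted p = 0.537), but -0.01 without AAV-miR SOD1 replicate 3 and -0.47 without replicate 2.

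Cacna1h (ENSMUSG00000024112, chr17:25374285-25433783, minus strand), a T-type pore also known from sensory neurons, was at 1.56, 1.49, 2.18 and 2.72 CPM with AAV-miR SOD1, at 1.37, 2.31, 4.57, 4.15 and 5.75 CPM with AAV-miR ctrl, and at 1.75, 4.78, 3.80 and 5.37 CPM without injection. The lowest of all was AAV-miR ctrl replicate 1; non-injected replicate 2 and AAV-miR ctrl replicate 3 lay within the AAV-miR SOD1 range, and the other 6 control libraries lay above it. Group means were 1.99 ± 0.579 (SD, n = 4), 3.63 ± 1.77 (n = 5) and 3.92 ± 1.59 CPM (n = 4). It had the largest log2 fold change of the members tested, -0.93 ± 0.42 (SE) against both control groups, which did not pass the adjustment (adjusted p = 0.213). Its 95% interval ran from -1.76 to -0.10. Controls numbered 5 or 6 averaged 4.77 ± 0.941 CPM (n = 4) and controls numbered 1 to 4 averaged 2.96 ± 1.61 CPM (n = 5). Within libraries numbered 1 to 4 the fold change was -0.58, and with the replicate number as a block it was -0.42, both with an adjusted p above the threshold. Its level varied with the erythroid, microglia and motoneuron markers, as given below. Tpsg1, on the other strand, covers 1.62% of the Cacna1h exons.

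Cacna1i (ENSMUSG00000022416, chr15:80287238-80398279, plus strand), the third T-type pore, had 7, 1, 6 and 6 counts with AAV-miR SOD1, 13, 5, 0, 6 and 3 counts with AAV-miR ctrl, and 2, 1, 0 and 9 counts without injection. At most 0.574 CPM was reached, in AAV-miR ctrl replicate 1, and no count was found in non-injected replicate 5 or AAV-miR ctrl replicate 4. A difference between groups was not detectable at this depth. The log2 ratio of Cacna1g to Cacna1h counts was 2.30 ± 0.984 (SD, n = 4) with AAV-miR SOD1 and 1.91 ± 0.613 (n = 9) in both control groups (exact permutation p = 0.387, adjusted p = 0.852).

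Cacna2d1 (ENSMUSG00000040118, chr5:15934691-16374511, plus strand), an α2δ subunit and a target of gabapentin, was at 14.7, 12.7, 49.1 and 43.2 CPM with AAV-miR SOD1, at 25.5, 41.7, 51.0, 51.0 and 46.5 CPM with AAV-miR ctrl, and at 43.4, 28.2, 24.8 and 64.9 CPM without injection. AAV-miR SOD1 replicates 1 and 2 were the lowest of all 13 libraries, and replicates 3 and 4 lay inside the control range. The mean was 29.9 ± 18.9 CPM (SD, n = 4) with AAV-miR SOD1 against 41.9 ± 13.5 CPM (n = 9) in both control groups. The log2 fold change was -0.48 ± 0.38 (SE, adjusted p = 0.493), and -0.25, -0.22 and -0.77 without AAV-miR SOD1 replicate 1, 2 or 3. The level varied with the skeletal muscle markers, as given below.

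Cacna2d2 (ENSMUSG00000010066, chr9:107399612-107529343, plus strand), an α2δ subunit also bound by gabapentin, was at 3.65, 5.42, 3.65 and 4.42 CPM with AAV-miR SOD1, at 4.46, 6.79, 5.62, 5.68 and 4.43 CPM with AAV-miR ctrl, and at 4.61, 8.43, 7.97 and 3.61 CPM without injection. The lowest value was that of non-injected replicate 6, and the AAV-miR SOD1 libraries overlapped with both control groups. Its log2 fold change against both control groups was -0.43 ± 0.28 (SE, adjusted p = 0.398). Gm17141, on the other strand, covers 1.03% of the Cacna2d2 exons. The log2 ratio of Cacna2d1 to Cacna2d2 counts was 2.54 ± 1.15 (SD, n = 4) with AAV-miR SOD1 and 2.83 ± 0.805 (n = 9) in both control groups (exact permutation p = 0.594, adjusted p = 0.852). Over all 4 ratios and 4 comparisons, 0 of 16 passed. Before adjustment, the smallest exact p these group sizes allow is 0.0014 against both control groups. It is 0.00794 where AAV-miR ctrl is set against another single group, and 0.0286 for AAV-miR SOD1 against the non-injected group. A lone ratio between 2 single groups could therefore not pass the adjustment over 16 tests, and 0 of 16 does not show that the ratios were stable.

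As a group, 6 of the 9 members tested had a lower level with AAV-miR SOD1 than in both control groups (Cacna1c, Cacna1d, Cacna1g, Cacna1h, Cacna2d1 and Cacna2d2) and 3 a higher one, none past the threshold. Their median log2 fold change was -0.43, beside -0.06 over all 17403 genes, of which 54.2% were lower. The members' median was -0.21 without AAV-miR SOD1 replicate 3 and -0.22 without both control libraries of contradicting header. Against AAV-miR ctrl the median was -0.27 (all genes -0.04), but -0.0264, with 5 of 9 lower, without AAV-miR SOD1 replicate 3. Against the non-injected group it was -0.43 (all genes -0.09), and -0.25 without both libraries of contradicting header. For AAV-miR ctrl against the non-injected group it was -0.01 (all genes -0.01), and ran from -0.20 to 0.10 over the alternatives. Standard errors of the 9 members ran from 0.27 to 0.43 in the comparison with both control groups. The 7 motoneuron markers were all lower with AAV-miR SOD1, with a median log2 fold change of -1.10, and all 7 had an unadjusted p under 0.05. All 6 erythroid markers were higher (median 1.58), as were all 6 microglia markers (median 0.59), with 6 and 3 at an unadjusted p under 0.05 (22.2% of all genes). Of the other lists, 5 of 6 astrocyte markers (median -0.30), 6 of 6 oligodendrocyte markers (-0.53), 5 of 5 skeletal muscle markers (-0.29), 3 of 4 inhibitory interneuron markers (-0.13) and 2 of 4 endothelial markers (0.10) were lower. None of the markers in these 8 lists passed the adjustment. Their part in the members' values was not tested beyond the correlations below.

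**Figure D3:**
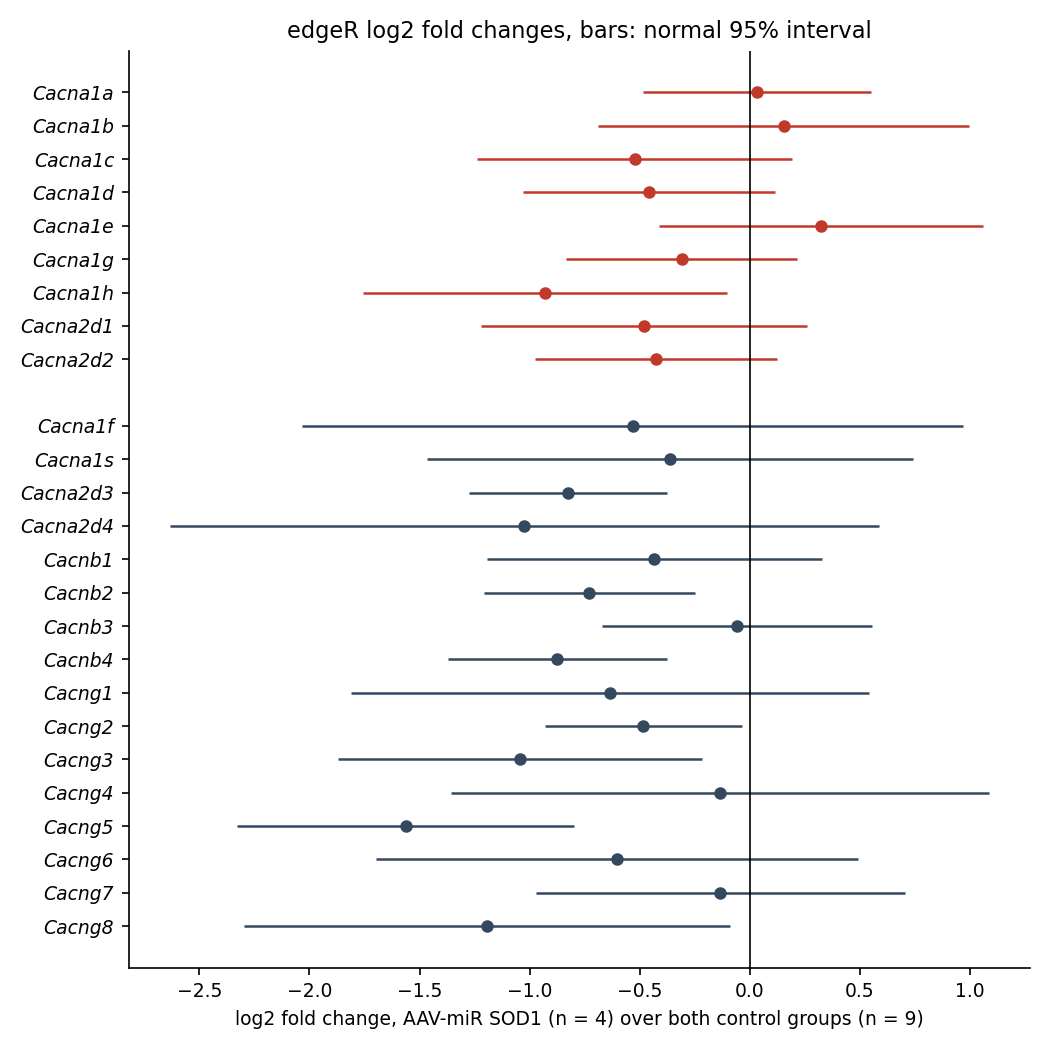
Log2 fold change of AAV-miR SOD1 (n = 4) over both control groups (n = 9) for the 9 members tested (red) and the 16 other subunit genes (dark blue), with bars of normal 95% intervals; Cacna1i is not shown because it did not pass the filter. Among the members only the bar of Cacna1h excludes 0, and all 16 other subunits lie below 0.

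The remaining genes with a calcium channel subunit symbol were taken as a list of 16, all tested. Membership was set by symbol, and not every product serves calcium channels alone, as for Cacng5 below. All 16 had a lower level with AAV-miR SOD1 than in both control groups, with a median log2 fold change of -0.62, and 0 of 16 passed edgeR's adjustment while 5 had an unadjusted p under 0.05 (22.2% of all genes in either direction, 12.1% lower). At most 2 of them were higher in any of the 23 alternative fits. Cacng5, a γ subunit that also serves as an auxiliary subunit of AMPA receptors, was at 6.23, 4.70, 2.89 and 5.94 CPM with AAV-miR SOD1, at 7.73, 9.54, 10.6, 23.1 and 21.6 CPM with AAV-miR ctrl, and at 7.61, 21.6, 10.6 and 18.8 CPM without injection. All 4 AAV-miR SOD1 libraries lay below all 9 controls, as for 1.23% of all genes, and its log2 fold change was -1.56 ± 0.39 (SE, adjusted p = 0.0960). Cacna2d3, an α2δ subunit, was at 22.2, 35.4, 28.1 and 36.1 CPM with AAV-miR SOD1 and at 33.1 to 82.9 CPM in the 9 controls, with a log2 fold change of -0.83 ± 0.23 (adjusted p = 0.0970). Cacnb4, a β subunit that binds the pore from inside the cell, was at 6.54, 9.36, 6.49 and 12.9 CPM with AAV-miR SOD1 and at 11.2 to 20.998 CPM in the controls, with a log2 fold change of -0.88 ± 0.25 (adjusted p = 0.101). DESeq2 called 4 of the 16 lower (Cacna2d3, Cacnb2, Cacnb4 and Cacng5), where it called 4.5% of all genes lower, and limma-voom called 2 (Cacna2d3 and Cacng5), where it called 3.03% lower. Without AAV-miR ctrl replicate 1, edgeR called 3 of the 16 lower (Cacna2d3, Cacnb4 and Cacng5), beside 4.05% of all genes lower and 9.84% in either direction. For these 16, 0 passed for AAV-miR ctrl against the non-injected group, with 1 at an unadjusted p under 0.05 (3.61% of all genes) and a median log2 fold change of 0.04.

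Subunits of the skeletal muscle channel complex had the highest levels in the list. Cacna1s, the muscle L-type pore that senses voltage for contraction, averaged 187 CPM over the 13 libraries, and Cacnb1, its β subunit, averaged 88.9 CPM. Per kilobase of exon, Cacng1, Cacng6, Cacna1s and Cacnb1 all stood above each of the 10 members. So did Cacng2 (9.01 CPM per kilobase) and Cacna2d3 (5.33 CPM per kilobase).

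**Figure D4:**
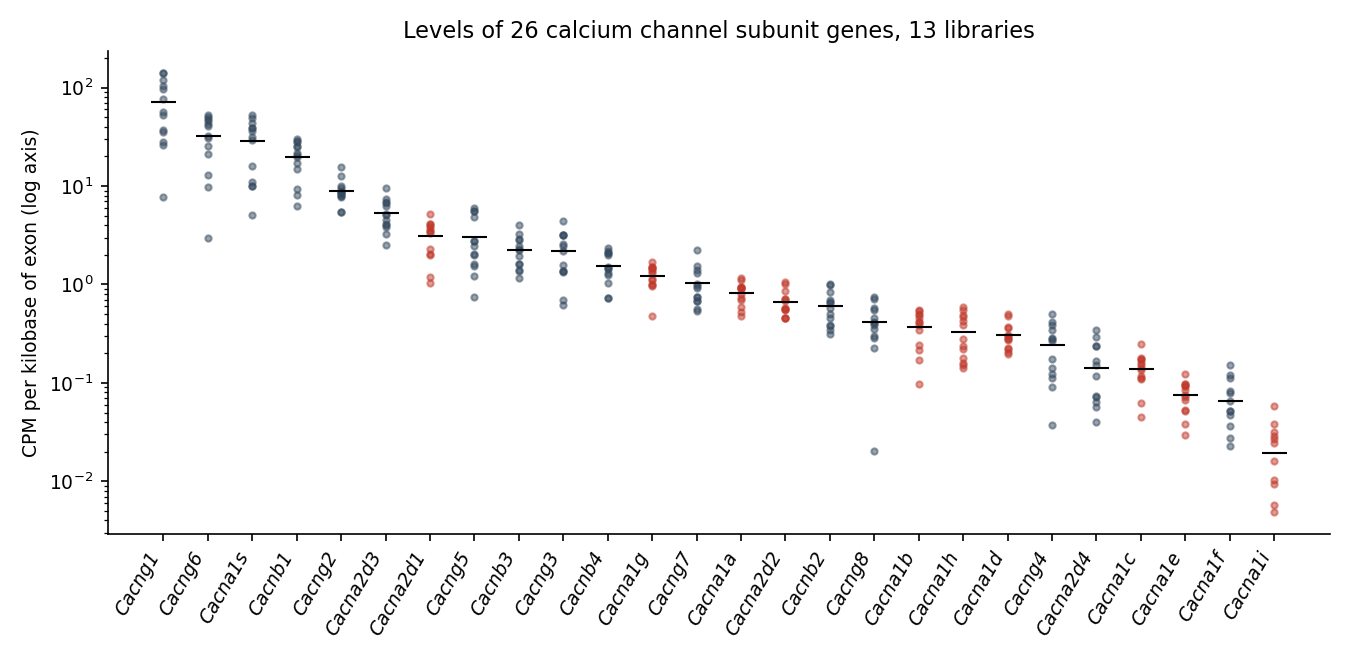
Level of all 26 calcium channel subunit genes as CPM per kilobase of exon (vertical log axis), 1 point per library and a black tick at the mean of 13 libraries, with members in red and other subunits in dark blue. Cacng1, Cacng6, Cacna1s and Cacnb1 lead the order, Cacna2d1 is the highest member, and the 2 libraries with no Cacna1i count have no point.

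Proteins that regulate or anchor the channels formed a list of 19, of which 17 were lower with AAV-miR SOD1 than in both control groups, with a median log2 fold change of -0.59, and 0 passed edgeR's adjustment (9 had an unadjusted p under 0.05, all lower, beside 12.1% of all genes). Gem and Rem2, small GTPases that inhibit the channels, had log2 fold changes of -1.16 ± 0.32 (SE, adjusted p = 0.0962) and -1.31 ± 0.40 (adjusted p = 0.104). Rims2, an active-zone protein that holds channels near vesicles, had -0.98 ± 0.33 (adjusted p = 0.117). Calcium-activated potassium channels, opened by the calcium that these pores admit, were lower for 7 of 8 (median -0.63), with 0 past the adjustment. An unadjusted p under 0.05, held by 22.2% of all genes in either direction, was found for 2 of them. Those were Kcnmb4, an accessory subunit of BK channels, at -0.92 ± 0.26 (adjusted p = 0.0970) and Kcnn4, the intermediate-conductance channel of blood cells, at 1.33 ± 0.57 (adjusted p = 0.190). Kcnn2, a small-conductance channel, had -0.46 ± 0.23 (adjusted p = 0.255), and Kcnma1, the BK pore, -0.36 ± 0.23 (adjusted p = 0.369). Channels that release calcium from internal stores were lower for 5 of 6 (median -0.30), with 0 past the adjustment. Of these 6, 1, Itpr2, had an unadjusted p under 0.05, beside 22.2% of all genes in either direction. Itpr2, an IP3 receptor, had a log2 fold change of 0.70 ± 0.26 (adjusted p = 0.137), whereas Itpr1 had -0.38 ± 0.23 (adjusted p = 0.359), Ryr2 -0.38 ± 0.27 (adjusted p = 0.436) and Ryr1, the muscle ryanodine receptor, -0.10 ± 0.47 (adjusted p = 0.928).

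No pair of members was correlated across libraries past the adjustment. Over the 36 pairs of the 9 members tested, Pearson's r of log2 CPM (prior count 2, n = 13) ran from -0.497 to 0.598 with a median of 0.00599, and was above 0 for 19 pairs. By Pearson's r 0 of the 36 passed (smallest adjusted permutation p = 0.398, with 3 at an unadjusted p under 0.05), and 0 by Spearman's rho. The highest r was that of Cacna1g with Cacna2d2, at 0.598. Within the 9 libraries numbered 1 to 4, 1 pair passed, Cacna1a with Cacna2d2 (r = 0.930, adjusted permutation p = 0.0198).

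Each member was set against the summed level of each of 8 cell type marker lists, 72 relations chosen after the values were seen. Of these, 7 passed the adjustment by Pearson's r and 4 by Spearman's rho, with permutation tests of 100000 resamples over the 13 libraries. Cacna2d1 rose with the skeletal muscle markers (r = 0.867, adjusted permutation p = 0.0194; rho = 0.643, adjusted permutation p = 0.149). Leaving out the 2 libraries whose muscle sum was farthest from the median gave r = 0.782, and within libraries numbered 1 to 4 it was 0.926. Every marker of that list was detected in all 13 libraries. The 2 libraries lowest in Cacna2d1, AAV-miR SOD1 replicates 1 and 2, had skeletal muscle sums of 19507 and 5984 CPM, and AAV-miR SOD1 replicates 3 and 4 had 85572 and 63210 CPM. Cacna1h was lower where erythroid markers were higher (r = -0.856, adjusted permutation p = 0.0212; rho = -0.791, adjusted permutation p = 0.0414), and r was -0.878 without the 2 farthest libraries and -0.834 within libraries numbered 1 to 4. It also fell as microglia markers rose (r = -0.794, adjusted permutation p = 0.0337; rho = -0.857, adjusted permutation p = 0.0259), with -0.746 and -0.789 in those subsets. With the motoneuron markers Cacna1h had r = 0.762 (adjusted permutation p = 0.0461; rho = 0.676, adjusted permutation p = 0.115), and 0.726 and 0.603 in the subsets.

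Cacna1g also rose with the motoneuron markers (r = 0.687, adjusted permutation p = 0.0420; rho = 0.808, adjusted permutation p = 0.0414), with r = 0.603 without the 2 farthest libraries and 0.705 within libraries numbered 1 to 4. It was lower where the endothelial markers were higher by rho alone (rho = -0.780, adjusted permutation p = 0.0414; r = -0.720, adjusted permutation p = 0.0666), with r = -0.583 and -0.795 in those subsets. Cacna1d rose with the motoneuron markers by r (r = 0.777, adjusted permutation p = 0.0337; rho = 0.692, adjusted permutation p = 0.115), with 0.606 and 0.720 in those subsets. Cacna1e rose with the microglia markers by r (r = 0.762, adjusted permutation p = 0.0337; rho = 0.676, adjusted permutation p = 0.115), with 0.514 and 0.924. Cacna1a had r = -0.354 with the motoneuron markers over 13 libraries (adjusted permutation p = 0.440) and r = 0.858 within the 9 libraries numbered 1 to 4, where no separate test was made. All these relations hold group differences too. On deviations from group means r was 0.863 for Cacna2d1 with skeletal muscle, -0.809 for Cacna1h with erythroid markers and 0.641 for Cacna1g with motoneuron markers.

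**Figure D5:**
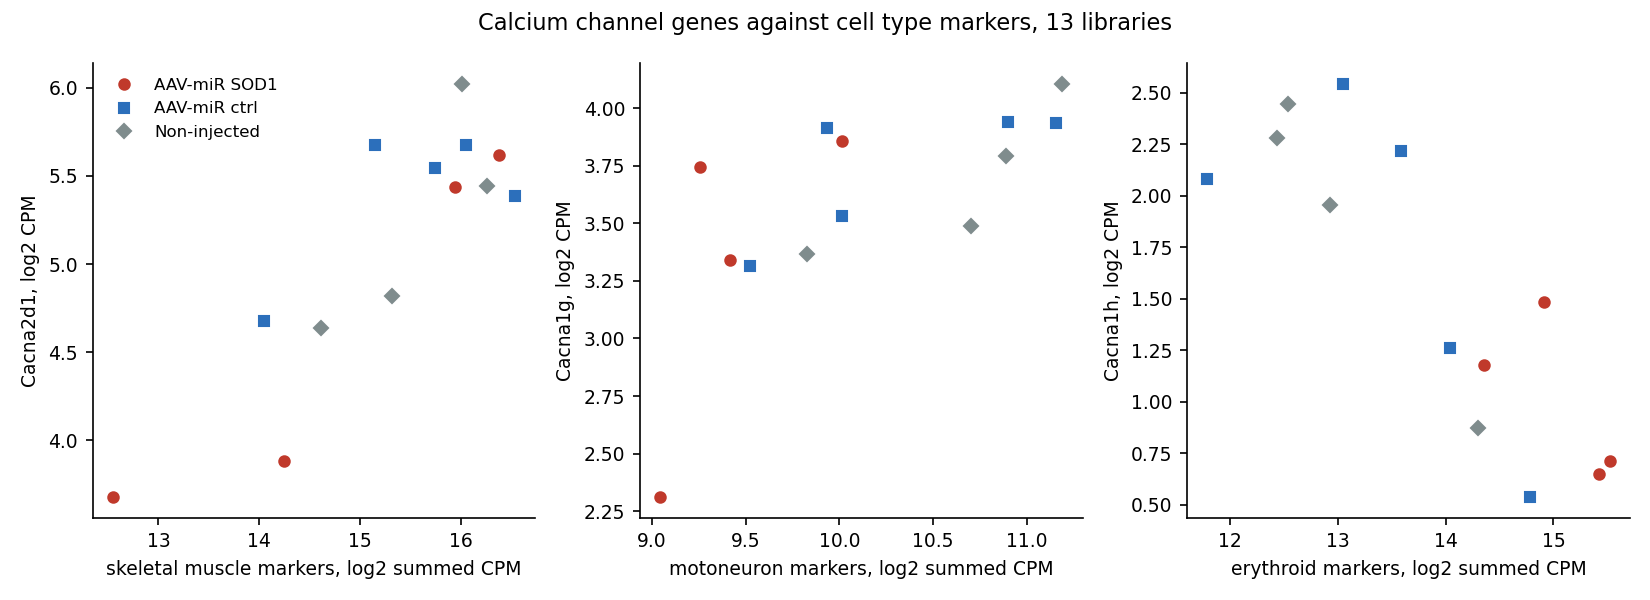
Log2 CPM of Cacna2d1, Cacna1g and Cacna1h (vertical axes) against the log2 summed CPM of skeletal muscle, motoneuron and erythroid markers (horizontal axes), 1 point per library, with AAV-miR SOD1 in red, AAV-miR ctrl in blue and non-injected in grey. The points of Cacna2d1 rise with the muscle sum (r = 0.867), those of Cacna1g with the motoneuron sum (r = 0.687), and those of Cacna1h fall with the erythroid sum (r = -0.856).

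For the member with the highest mean CPM in each class, the genes of the most similar profile over the 13 libraries were listed among 11884 genes, as a description with no test, since they were picked for the highest r. Cacna2d1 was most like Amotl1 (r = 0.986), Uqcc1 (0.957) and Snapin (0.955). For Cacna1a these were Cdr1 (0.956), Gdi2 (0.935) and Pigt (0.928), for Cacna1g Tmem62 (0.913), Pi4ka (0.887) and Lancl3 (0.883), and for Cacna1d Mfsd6 (0.918), Usp30 (0.917) and AI837181 (0.894). The genes nearest to Cacna1e were Gdpd2 (0.887), Ibsp (0.880), which encodes bone sialoprotein, and Tnc (0.869), which encodes the matrix protein tenascin C.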

How the data were processed

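Each library has 1 deposited table of unnormalised read counts by Ensembl gene. The submitters' processing notes name cutadapt 1.8, STAR 2.5.2b, HTSeq 0.6.1 and GRCm38; parameters, annotation release and strand setting are not given in the sources used here. The 5 summary entries of each table were left out: reads in no feature or ambiguous made up 8.11% to 11.2% of uniquely aligned reads, and reads aligned to several places 42.3% to 56.8% of all. Symbols and positions came from GENCODE M21 (GRCm38), which named 48349 of 48709 identifiers.

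Counts were fitted in R 4.3.3 with edgeR 4.0.16 (filterByExpr with a minimum count of 10 and total of 15, TMM, quasi-likelihood F test, all 13 libraries and 3 groups, Benjamini-Hochberg adjustment over 17403 genes, threshold 0.05). The common biological coefficient of variation was 0.470. Standard errors are the fold change over the root of F, and 95% intervals are normal ones from them. Such intervals are narrower than the F test, with its few degrees of freedom, would give. For Cacna1h against the non-injected group the interval (-1.92 to -0.049) excluded 0 where the quasi-likelihood F test gave an unadjusted p of 0.058. Levels per kilobase used merged exons, and differences between members a pseudocount of 0.02 CPM. Ratios and neighbour steps used two-sided exact permutation tests.

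All 10 members were named. From each further list, the 3 genes of smallest p against both control groups and the 2 of highest mean CPM were named, except that those of highest CPM among the channel regulators are not reported here; profiles were compared among genes of at least 5 CPM. The members and lists were chosen with earlier results of these data known. Besides the rule, Cacnb2, Cacng1, Cacng2 and Cacng6 were named after their values were seen. In counts simulated for the AAV-miR SOD1 group set against both controls (16911 genes, 200 changed), edgeR recovered 70% of 4-fold and 88% of 16-fold changes with 5 false calls among 163. DESeq2 1.42.0 made 33 false calls among 209, and limma-voom with quality weights (limma 3.58.1) 4 among 148. Changes below 4-fold were not simulated, and genes were drawn independently, with no shared tissue content. All fitted changes of the members were smaller than 4-fold, so the recovery of changes of their size was not measured. Alternatives covered scaling, filter, tool, prior count, replicate block, libraries numbered 1 to 4 alone, header exchange and each library left out. Added after the values were seen were the fits without both libraries whose headers contradict their labels, the longest coding transcript as length, subsets and group deviations for correlations, and the marker relations.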

Additional observations from a re-analysis of the deposited data

How the results depend on the processing

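No member passed the adjusted threshold in any of the 95 counts made under alternatives, over the 4 comparisons, 23 of them with both control groups as 1 set. Of 855 member fold changes under alternatives, 62 had the opposite sign, all in 17 of 36 results, and of 256 ratio values 28 did. The cause was not tested. Comparisons are named here by their groups, as in SOD1 to ctrl, and the values of opposite sign, all on the log2 scale, are given by setting. In limma-voom the value was in SOD1 to ctrl -0.0343 for Cacna1b and in ctrl to non-injected 0.23 for Cacna1a and 0.0133 for Cacna2d2. With the replicate number as a replicate block the value was in SOD1 to ctrl -0.24 for Cacna1a and -0.26 for Cacna1b, in SOD1 to non-injected -0.31 for Cacna1a and in SOD1 to both controls -0.27 for Cacna1a. In libraries numbered 1 to 4 alone the value was in SOD1 to ctrl -0.23 for Cacna1a, 0.0415 for Cacna1d and -0.46 for Cacna1a over Cacna1b, in SOD1 to non-injected -0.32 for Cacna1a, -0.33 for Cacna1b, 0.0689 for Cacna1a over Cacna1b and 0.0737 for Cacna2d1 over Cacna2d2, in ctrl to non-injected -0.52 for Cacna1b, -0.17 for Cacna1g, 0.53 for Cacna1a over Cacna1b and 0.31 for Cacna1c over Cacna1d and in SOD1 to both controls -0.28 for Cacna1a and -0.0720 for Cacna1b. Without both libraries with contradicting headers the value was in SOD1 to ctrl -0.00884 for Cacna1e and in ctrl to non-injected 0.0919 for Cacna1a, 0.14 for Cacna1h and -0.0157 for Cacna2d1. With upper quartile scaling the value was in ctrl to non-injected 0.0149 for Cacna1a. With the strict filter the value was in ctrl to non-injected 0.00471 for Cacna1a. With the header exchange the value was in ctrl to non-injected 0.0405 for Cacna1a, 0.22 for Cacna1d, 0.31 for Cacna1h, -0.11 for Cacna2d1, -0.18 for Cacna1g over Cacna1h and -0.12 for Cacna2d1 over Cacna2d2 and in SOD1 to ctrl -0.0440 for Cacna1a over Cacna1b. With a prior count of 0.5 the value was in SOD1 to ctrl -0.000538 for Cacna1a over Cacna1b. Leaving out each library in turn, in SOD1 to ctrl, gave -0.0846 to 0.23 for Cacna1a, -0.12 to 0.27 for Cacna1b, -0.59 to 0.0809 for Cacna1c, -0.0502 to 0.27 for Cacna1e, -0.24 to 0.32 for Cacna1a over Cacna1b, -0.44 to 0.0897 for Cacna1c over Cacna1d and -0.80 to 0.0302 for Cacna2d1 over Cacna2d2. Leaving out each library in turn, in SOD1 to non-injected, gave -0.17 to 0.24 for Cacna1a, -0.0404 to 0.64 for Cacna1b, -0.45 to 0.0143 for Cacna1g, -0.58 to 0.0944 for Cacna1a over Cacna1b and -0.53 to 0.35 for Cacna2d1 over Cacna2d2. Leaving out each library in turn, in ctrl to non-injected, gave -0.20 to 0.21 for Cacna1a, -0.13 to 0.53 for Cacna1b, -0.0530 to 0.19 for Cacna1g, -0.34 to 0.0975 for Cacna1h, -0.0595 to 0.43 for Cacna2d1, -0.65 to 0.0943 for Cacna1a over Cacna1b, -0.33 to 0.0785 for Cacna1c over Cacna1d, -0.0550 to 0.42 for Cacna1g over Cacna1h and -0.0741 to 0.76 for Cacna2d1 over Cacna2d2. Leaving out each library in turn, in SOD1 to both controls, gave -0.0648 to 0.16 for Cacna1a, -0.0259 to 0.38 for Cacna1b, -0.39 to 0.0355 for Cacna1a over Cacna1b, -0.51 to 0.0192 for Cacna1c over Cacna1d and -0.68 to 0.15 for Cacna2d1 over Cacna2d2. With the 9 libraries numbered 1 to 4 alone, 1 pair of members was correlated past the adjustment, where 0 were over all 13. With the replicate block, the member log2 fold change against both control groups ranged from -0.71 for Cacna1c to 0.55 for Cacna1e. Pairing of samples by replicate number was not tested. Over 8 pairs of same-numbered libraries of different groups, deviations from group means correlated at -0.189 to 0.243. Their median r was 0.0225, beside -0.00666 for the other pairs. Of 13 libraries, 3 correlated best with their own number. Over all genes, edgeR called 0 in each comparison, whereas DESeq2 called 173 against AAV-miR ctrl, 996 against non-injected, 1480 against both and 2 between the controls, and limma-voom called 1461 against both and 0 elsewhere. Against both control groups edgeR called 1694 genes without AAV-miR ctrl replicate 1, 121 without AAV-miR SOD1 replicate 3, 1 without AAV-miR SOD1 replicate 4 and 1 without the filter. Depth limits Cacna1i, with at most 13 counts in a library.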
